A study of Mus musculus with 12 samples.

Results

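The STAT transcription factors described here are the genes Stat2, Stat3, Stat4, Stat5a, Stat5b and Stat6, which were taken by symbol from a table of RNA-seq counts of B16 cells, an established mouse melanoma line. They make up 6 of the 23336 gene symbols in that table. STAT proteins wait in the cytoplasm until a Janus kinase (JAK) bound to a cytokine receptor phosphorylates them on a tyrosine. They then pair, enter the nucleus and bind short DNA elements near their target genes. Type I interferons such as interferon-beta (IFNb) act mainly through a complex of STAT2, a second STAT and IRF9, called ISGF3, which binds the interferon-stimulated response element (ISRE), whereas STAT dimers bind the gamma-activated site (GAS).

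The 4 groups of 3 libraries each were Adar-null cells given IFNb at 1000 U/mL, Adar-null cells given vehicle, control cells given IFNb at the same dose, and control cells given vehicle, all harvested after 36 h. Adar encodes the deaminase that converts adenosine to inosine in double-stranded RNA. Adar-null cells had been transfected transiently with Cas9 and a guide against Adar (Adar sgRNA 1) and control cells with Cas9 and a non-targeting guide (control sgRNA 5). Both were subcloned, and with 1 guide per genotype the effect of the guide and of the subcloning cannot be told apart. The vehicle was phosphate-buffered saline with bovine serum albumin. The labels do not state whether the 3 libraries of each group were grown as separate cultures, so p-values reflect library-to-library spread that may be technical in part or whole. The interferon-gamma arm that the design mentions is not analysed here. In bulk RNA, fewer cells of a kind and less RNA per cell cannot be told apart.

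Libraries held 5375649 to 7153480 counts, and 11561 genes had enough counts to be tested. Replicates of a group differed by more than sampling noise, with chi-square per degree of freedom of 1.47 to 3.23. All 7 melanocyte markers were present, with summed levels of 10416 to 11132 CPM (counts after scaling each library to the same size) in Adar-null cells with IFNb, 15237 to 15420 CPM in Adar-null cells with vehicle, 13345 to 13646 CPM in control cells with IFNb and 15621 to 16451 CPM in control cells with vehicle. The lower sum under IFNb in Adar-null cells accompanies the STAT differences given below, and its part in them was not tested. Of 11 leukocyte markers, Cd3e, Ncr1 and Cd14 were among those at 0 counts in all 12 libraries, and the whole list summed to at most 2.40 CPM in any library. Adar RNA averaged 407 ± 21.1 CPM in Adar-null cells with IFNb, 59.5 ± 5.25 CPM in Adar-null cells with vehicle, 384 ± 7.43 CPM in control cells with IFNb and 72.1 ± 2.05 CPM in control cells with vehicle (SD, n = 3 each). The Adar log2 fold change, Adar-null over control, was -0.28 ± 0.06 under vehicle (adjusted p = 0.0017) and 0.09 ± 0.05 under IFNb (adjusted p = 0.0817). A count per gene does not show whether the reading frame is broken, so these values do not test the deletion.

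Of the 6 genes, Stat2 and Stat6 lie on mouse chromosome 10, Stat5b, Stat5a and Stat3 follow each other on chromosome 11, and Stat4 lies on chromosome 1 (GRCm38, GENCODE vM21). Stat2 spans chr10:128270559-128292849 on the plus strand, Stat6 chr10:127642986-127660957 on the plus strand, Stat5b chr11:100780731-100850724 on the minus strand, Stat5a chr11:100859351-100885169 on the plus strand, Stat3 chr11:100885098-100939540 on the minus strand and Stat4 chr1:51987148-52107189 on the plus strand. Sequences upstream of annotated starts (GRCm38.p6, 250 bases, written 5′ to 3′ on the strand of the gene) are shown for 4 members. The 2 that hold a match to an ISRE-like motif are shown, with Stat3 and Stat6, whose levels also differed with IFNb but whose windows hold no match. The RefSeq spans of Stat3 and Stat6 begin inside their windows. Capitals mark matches to TTTCNNTTTC (ISRE-like) or TTCNNNNGAA (the wider spacing of half-sites that STAT6 is known to bind), searched on both strands.
Stat2, chr10:128270248-128270497, plus strand: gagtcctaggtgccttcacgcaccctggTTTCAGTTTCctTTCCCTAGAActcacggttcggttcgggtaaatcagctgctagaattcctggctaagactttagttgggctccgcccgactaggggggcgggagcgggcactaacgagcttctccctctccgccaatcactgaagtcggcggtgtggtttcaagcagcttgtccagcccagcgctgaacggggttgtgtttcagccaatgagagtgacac
Stat4 second start, chr1:52007990-52008239, plus strand: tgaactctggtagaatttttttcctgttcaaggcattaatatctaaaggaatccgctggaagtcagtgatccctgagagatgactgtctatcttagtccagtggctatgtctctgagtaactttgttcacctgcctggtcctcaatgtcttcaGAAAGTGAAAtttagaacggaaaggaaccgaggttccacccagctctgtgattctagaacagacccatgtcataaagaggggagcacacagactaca
Stat3, chr11:100939541-100939790, minus strand: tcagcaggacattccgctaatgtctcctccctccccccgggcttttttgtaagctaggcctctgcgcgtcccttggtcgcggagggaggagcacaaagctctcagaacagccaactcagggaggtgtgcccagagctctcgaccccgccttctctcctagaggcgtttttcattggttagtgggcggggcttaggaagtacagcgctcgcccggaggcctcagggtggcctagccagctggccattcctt
Stat6, chr10:127642736-127642985, plus strand: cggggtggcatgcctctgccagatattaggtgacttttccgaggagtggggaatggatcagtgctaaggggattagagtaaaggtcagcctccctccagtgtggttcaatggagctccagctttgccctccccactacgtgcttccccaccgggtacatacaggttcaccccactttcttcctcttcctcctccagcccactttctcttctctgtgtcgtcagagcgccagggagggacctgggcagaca

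The Stat2 window held TTTCAGTTTC at position -222 from the start (chr10:128270276-128270285) and, 2 bases after it, TTCCCTAGAA at -210, and the matches did not overlap. The window of the second Stat4 start held GAAAGTGAAA at -97, a match on the opposite strand, and the window of its first start held no match. No match was in the windows of Stat3, Stat5a, Stat5b and Stat6, and the GAS-like motif TTCNNNGAA was in no window of a member. Among 32851 mouse promoter windows of the same length, 2.98% held TTTCNNTTTC, 5.85% held TTCNNNNGAA and 7.02% held TTCNNNGAA on either strand. Of the tested genes with TTTCNNTTTC in a window, 136 of 258 (52.7%) were higher with IFNb in Adar-null cells, against 37.1% of 8309 tested genes with a window, and 105 of 258 (40.7%) were higher with IFNb in control cells, against 27.4%. Some genes, 4.01% of all tested, reached the count filter only with the IFNb libraries, which partly sets their direction. Their number among the 258 was not counted, so the excess is not read as a result. A match describes the letters of a window and is not evidence of binding.

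Under IFNb, Stat2, Stat3 and Stat6 RNA rose in both genotypes, Stat2 by far the most, while Stat5a and Stat5b fell in Adar-null cells. Stat2, the STAT peculiar to ISGF3, had 339, 337 and 331 CPM in the 3 Adar-null libraries with IFNb, against 7.01, 8.27 and 7.66 CPM with vehicle. In control cells it had 109.9, 135 and 123 CPM with IFNb, against 6.67, 5.60 and 4.69 CPM with vehicle. The IFNb and vehicle libraries were far apart in both genotypes. The log2 fold change, IFNb over vehicle, was 5.44 ± 0.12 in Adar-null cells (43.5-fold, adjusted p = 8.22e-90) and 4.44 ± 0.15 in control cells (21.7-fold, adjusted p = 8.82e-70) in edgeR's quasi-likelihood test with Benjamini-Hochberg adjustment over all genes tested, which gave every adjusted p below.

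**Figure D1:**
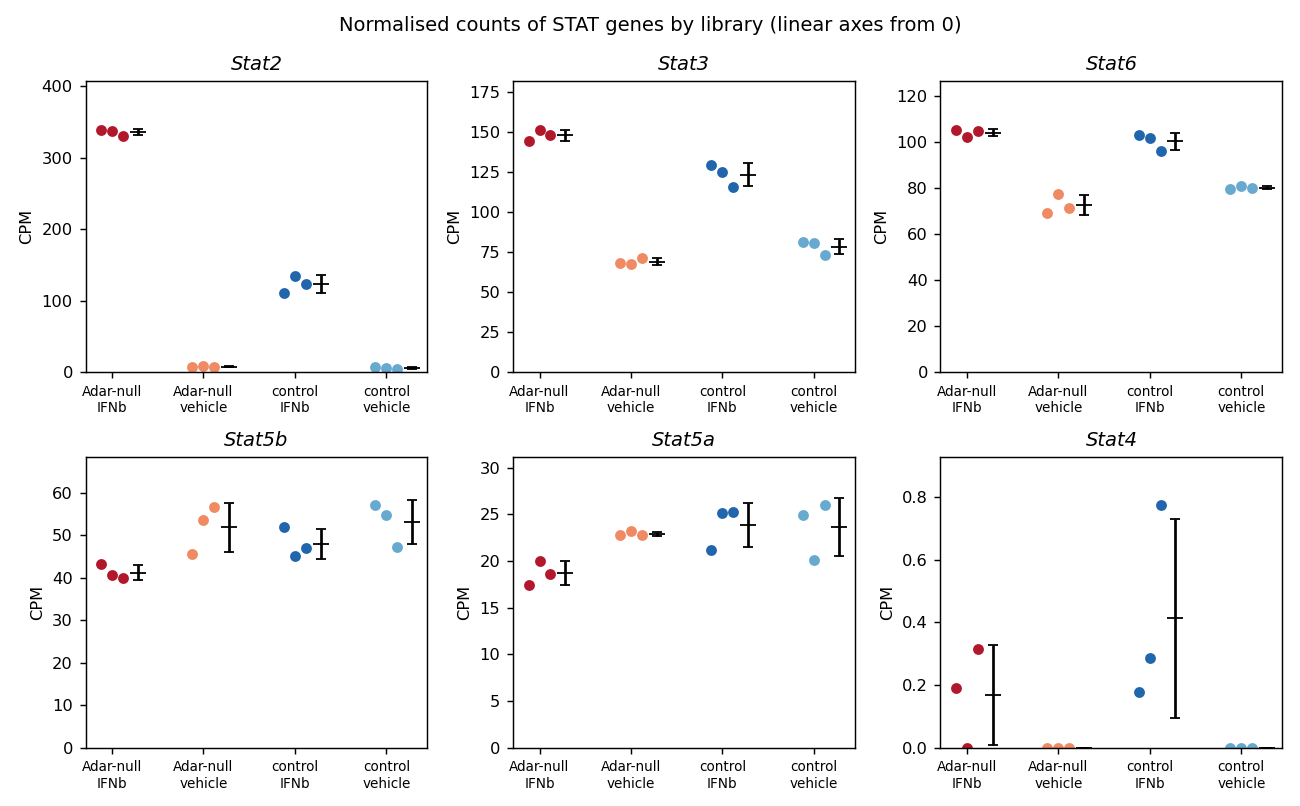
CPM of each STAT gene (y axis, linear from 0, a scale per panel) in each of the 12 libraries, by group (x axis); coloured points are libraries and the black marks beside them are the mean and SD of 3 libraries. With IFNb, Stat2 averaged 336 CPM in Adar-null cells and 123 CPM in control cells, while Stat5a and Stat5b were lowest in Adar-null cells with IFNb and Stat4 had single counts with IFNb.

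Stat3, which relays signals of the IL-6 and IL-10 families, had 145, 152 and 148 CPM in Adar-null cells with IFNb, against 68.1, 67.4 and 71.4 CPM with vehicle. In control cells it had 129, 125 and 116 CPM with IFNb, against 81.4, 80.7 and 73.0 CPM with vehicle. All IFNb libraries lay above all vehicle libraries of their genotype. The Stat3 log2 fold change was 1.11 ± 0.06 in Adar-null cells (2.15-fold, adjusted p = 2.21e-36) and 0.65 ± 0.06 in control cells (1.57-fold, adjusted p = 7.6e-19).

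Stat6, the main mediator of IL-4 and IL-13, had 106, 102 and 105 CPM in Adar-null cells with IFNb, against 69.1, 77.4 and 71.6 CPM with vehicle. In control cells it had 103, 102 and 96.1 CPM with IFNb, against 79.7, 81.0 and 80.1 CPM with vehicle. The IFNb libraries of both genotypes overlapped each other and lay above both vehicle groups. The Stat6 log2 fold change was 0.51 ± 0.06 in Adar-null cells (1.43-fold, adjusted p = 2.66e-13) and 0.32 ± 0.06 in control cells (1.25-fold, adjusted p = 2.03e-06).

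Stat5b, which with Stat5a serves prolactin, growth hormone and the IL-2 family, had 43.1, 40.5 and 39.8 CPM in Adar-null cells with IFNb, against 45.5, 53.5 and 56.6 CPM with vehicle. In control cells Stat5b had 51.9, 45.0 and 46.9 CPM with IFNb, against 57.0, 54.9 and 47.3 CPM with vehicle. The groups were separate in Adar-null cells and overlapped in control cells. The Stat5b log2 fold change was -0.34 ± 0.08 in Adar-null cells (adjusted p = 0.000141) and -0.15 ± 0.08 in control cells (adjusted p = 0.0974, 95% interval -0.31 to 0.00). In control cells the Stat5b difference passed the threshold with library totals alone (-0.23, adjusted p = 0.0139), with upper-quartile scaling (-0.18, adjusted p = 0.0452), without control IFNb replicate 1 (-0.21, adjusted p = 0.0404) and without control vehicle replicate 3 (-0.23, adjusted p = 0.022), so it lay near the threshold.

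Stat5a had 17.4, 20.0 and 18.6 CPM in Adar-null cells with IFNb, against 22.8, 23.2 and 22.8 CPM with vehicle. In control cells Stat5a had 21.2, 25.1 and 25.2 CPM with IFNb, against 24.9, 20.1 and 26.0 CPM with vehicle. The groups were again separate in Adar-null cells and overlapped in control cells. The Stat5a log2 fold change was -0.29 ± 0.12 in Adar-null cells (adjusted p = 0.0216) and 0.02 ± 0.11 in control cells (adjusted p = 0.879, 95% interval -0.20 to 0.24). The Stat5a call in Adar-null cells was lost with the DESeq2 test (-0.29, adjusted p = 0.063), without Adar-null IFNb replicate 1 (-0.26, adjusted p = 0.0682) and without Adar-null vehicle replicate 2 (-0.28, adjusted p = 0.0543).

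Stat4, which IL-12 activates in T cells and natural killer cells, had too few counts to be tested. It had 1, 0 and 2 counts in Adar-null cells with IFNb, 0 in each Adar-null library with vehicle, 1, 2 and 5 counts in control cells with IFNb, and 0 in each control library with vehicle. The counts were thus in IFNb libraries of both genotypes, and the group sums were 3 in Adar-null cells and 8 in control cells. In control cells 5 of the 8 counts came from replicate 3. The level was 0.419 CPM with IFNb (exact 95% counting interval 0.181 to 0.826) and 0 with vehicle (interval up to 0.213). These intervals overlapped, which is not a test of the difference. The ratio of Adar-null to control cells under IFNb was 0.391 with an exact 95% counting interval of 0.0669 to 1.63, so no difference was detectable at this depth. Without a filter on low counts, Stat4 had an adjusted p of 0.0263 for the IFNb response in control cells and 0.154 in Adar-null cells, in a fit of 17070 genes, the first with most of its counts in that 1 library.

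In Adar-null cells, all 5 tested members passed the threshold, 3 higher and 2 lower, where 72.3% of the genes tested passed, 36.6% higher and 35.7% lower, and the IFNb and vehicle libraries did not overlap for 73.7%. In control cells, 3 of 5 passed, all higher, where 53% of the genes tested passed, 26.5% higher and 26.5% lower, and the libraries did not overlap for 57.6%. The shares of members called were thus near or somewhat above those of all genes, and the counts alone do not set the STAT genes apart. The median log2 fold change over the 5 was 0.51 in Adar-null cells and 0.32 in control cells, beside 0.01 and -0.00 over all genes tested. With library totals alone in place of TMM scaling, 39.4% of the genes called in control cells were higher, beside 50.0% with TMM, and the 3 STAT calls of control cells kept their direction and passed.

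**Figure D2:**
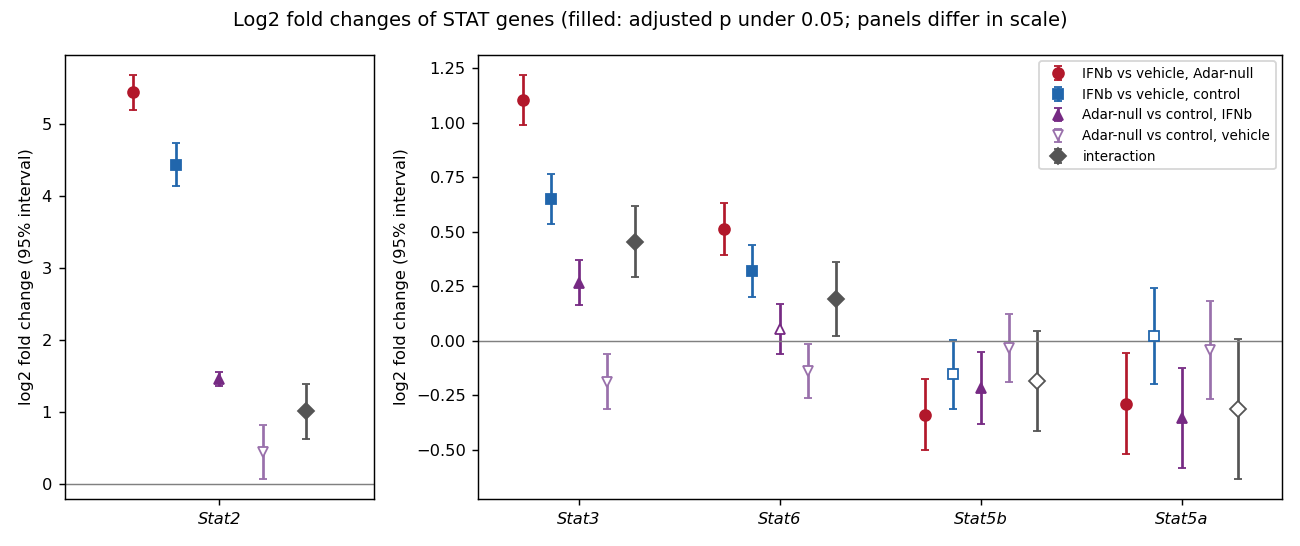
Log2 fold changes of the 5 tested STAT genes (y axis, with 95% intervals; the left and right panels differ in scale) for the 4 comparisons and the interaction; filled symbols passed an adjusted p of 0.05. The IFNb response of Stat2 was 5.44 in Adar-null cells and 4.44 in control cells, and the open symbols of the vehicle comparison lie near 0 for Stat5a and Stat5b.

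Between genotypes, Stat2 and Stat3 were higher and Stat5a and Stat5b lower in Adar-null cells under IFNb, whereas Stat6 did not pass there, Stat4 was not tested, and no member passed under vehicle. Under IFNb, Adar-null cells had 336 ± 4.56 CPM of Stat2 and control cells 123 ± 12.5 CPM (SD, n = 3 each), a log2 fold change of 1.45 ± 0.05 (2.73-fold, adjusted p = 7.06e-53). Stat3 averaged 148 ± 3.48 CPM in Adar-null cells and 123 ± 7.06 CPM in control cells, a log2 fold change of 0.27 ± 0.05 (adjusted p = 3.04e-06). For both genes every Adar-null library lay above every control library.

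Stat5a averaged 18.7 ± 1.28 CPM in Adar-null cells and 23.8 ± 2.32 CPM in control cells under IFNb, a log2 fold change of -0.35 ± 0.12 (adjusted p = 0.00439). Stat5b averaged 41.1 ± 1.73 CPM in Adar-null cells and 47.9 ± 3.58 CPM in control cells, a log2 fold change of -0.22 ± 0.08 (adjusted p = 0.0151). Every Adar-null library lay below every control library for both, as the libraries of the genotypes failed to overlap for 74% of all genes tested. The Stat5b call was lost with DESeq2 (-0.21, adjusted p = 0.0625) and without control IFNb replicate 1 (-0.16, adjusted p = 0.105). Stat6 averaged 104 ± 1.64 CPM in Adar-null cells and 100.4 ± 3.77 CPM in control cells, a log2 fold change of 0.05 ± 0.06 with a 95% interval of -0.06 to 0.17 (adjusted p = 0.393). Thus 4 of 5 tested members passed under IFNb, 2 higher and 2 lower, where 72.6% of the genes tested passed, 36.4% higher and 36.2% lower, so the count was near that of all genes. Of the 8 fibroblast, endothelial and epithelial markers, Epcam and Krt18 were at 0 counts in all libraries, and under IFNb the list's summed level was between 28.1 and 35.2 CPM in the Adar-null libraries and between 15.1 and 17.3 CPM in the control libraries. Under vehicle it was between 25.8 and 29.9 CPM in the Adar-null libraries and between 17.46 and 27.9 CPM in the control libraries. Its main gene, the collagen gene Col1a2, averaged 19.4 ± 3.16 CPM in Adar-null cells and 9.18 ± 1.55 CPM in control cells under IFNb. The libraries of the genotypes thus did not overlap in this sum under IFNb, and its part in the STAT differences was not tested.

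Under vehicle, 0 of 5 tested members passed in edgeR's test and 0 in DESeq2, where edgeR called 6.51% of the genes tested, 2.47% higher and 4.05% lower (753 genes, and 308 without control vehicle replicate 2). Of the 5 members, 3 had an unadjusted p under 0.05 in edgeR's test. The share of all genes at that unadjusted threshold was not counted, and the 6.51% is not its counterpart. Stat2 averaged 7.65 ± 0.63 CPM in Adar-null cells and 5.65 ± 0.99 CPM in control cells (log2 fold change 0.44 ± 0.19, adjusted p = 0.145). Stat3 averaged 69.0 ± 2.12 CPM in Adar-null cells and 78.4 ± 4.65 CPM in control cells (-0.19 ± 0.06, adjusted p = 0.0558). Stat6 averaged 72.7 ± 4.23 CPM in Adar-null cells and 80.3 ± 0.70 CPM in control cells (-0.14 ± 0.06, adjusted p = 0.196). For these 3 genes the libraries of the genotypes did not overlap, Adar-null being above for Stat2 and below for Stat3 and Stat6, which was so for 22.3% of all genes tested. Without control vehicle replicate 3, the lowest control library for Stat3, the Stat3 value was -0.24 (adjusted p = 0.022). The 95% interval of the log2 fold change was -0.26 to 0.18 for Stat5a and -0.19 to 0.12 for Stat5b, whose libraries overlapped.

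The interaction, in which the control response is subtracted from the Adar-null response, uses the same 12 libraries as these comparisons. It was 1.01 ± 0.19 for Stat2 (adjusted p = 4.76e-06) and 0.45 ± 0.08 for Stat3 (adjusted p = 8.85e-07), so both responded more strongly in Adar-null cells. For Stat6 it was 0.19 ± 0.09 (adjusted p = 0.0435). The Stat6 call was lost under most alternatives, with adjusted p between 0.0179 and 0.132 over 19 alternatives. Stat6 passed between genotypes neither under IFNb (0.05 ± 0.06, adjusted p = 0.393) nor under vehicle (-0.14 ± 0.06, adjusted p = 0.196). A stronger Stat6 response in Adar-null cells was thus not firmly shown. The interaction was -0.31 ± 0.16 for Stat5a (adjusted p = 0.0875) and -0.18 ± 0.11 for Stat5b (adjusted p = 0.16), so a difference in their responses was not shown. Without control IFNb replicate 1 the Stat5a interaction was -0.39 (adjusted p = 0.0404) and without control vehicle replicate 3 it was -0.38 (adjusted p = 0.0461). Without Adar-null vehicle replicate 1 the Stat5b interaction was -0.27 (adjusted p = 0.0478). In all, 3 of 5 members passed, all higher, where 59.3% of the genes tested passed, 28.6% higher and 30.7% lower.

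Levels were compared between members as CPM per kb of exon, which removes most of the effect of transcript length. In Adar-null cells with IFNb the order was Stat2 at 76.3 ± 1.04, Stat6 at 27.6 ± 0.43, Stat3 at 23.8 ± 0.56, Stat5b at 7.43 ± 0.31 and Stat5a at 4.70 ± 0.32 CPM per kb (SD, n = 3), and no neighbours in this order overlapped. In Adar-null cells with vehicle it was Stat6 at 19.3 ± 1.12, Stat3 at 11.1 ± 0.34, Stat5b at 9.37 ± 1.03, Stat5a at 5.77 ± 0.06 and Stat2 at 1.74 ± 0.14 CPM per kb. Stat2 was thus last of the 5 without IFNb and first with it.

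In control cells with IFNb, Stat2 at 27.9 ± 2.85 and Stat6 at 26.6 ± 1.00 CPM per kb overlapped between libraries, followed by Stat3 at 19.8 ± 1.13, Stat5b at 8.66 ± 0.65 and Stat5a at 6.01 ± 0.59. In control cells with vehicle the order was that of Adar-null cells with vehicle, from Stat6 at 21.3 ± 0.19 through Stat3 at 12.6 ± 0.75, Stat5b at 9.58 ± 0.93 and Stat5a at 5.96 ± 0.79 to Stat2 at 1.29 ± 0.23 CPM per kb. Stat2 made up a median of 54.6% of the summed level per kb of the 6 members in Adar-null cells with IFNb, 3.62% in Adar-null cells with vehicle, 32.1% in control cells with IFNb and 2.51% in control cells with vehicle. Stat4 was at most 0.246 CPM per kb in any library. The order did not change when the longest transcript replaced the union of exons, and 4 of 20 mean levels moved by more than 1 SD.

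**Figure D3:**
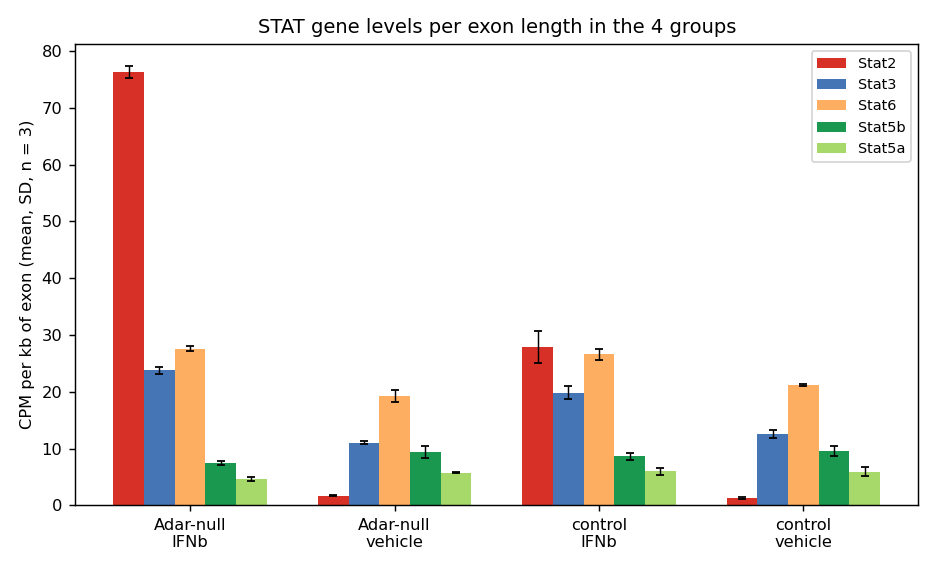
Mean CPM per kb of exon (y axis, linear from 0) of the 5 tested STAT genes in the 4 groups (x axis); bars are means and error bars SD over 3 libraries. Stat2 is the tallest bar in Adar-null cells with IFNb at 76.3 and the shortest in both vehicle groups, at 1.74 and 1.29.

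Stat5a and Stat5b arose by duplication and are closely alike in sequence, so some short reads could belong to either. In GENCODE transcripts they shared 758 runs of 37 bases, 10.3% of those of Stat5a and 13.7% of those of Stat5b, and the division of such reads by the counting is not stated. The ratio of Stat5a to Stat5b counts was 0.404 to 0.493 in Adar-null cells with IFNb, 0.403 to 0.50 in Adar-null cells with vehicle, 0.408 to 0.559 in control cells with IFNb and 0.366 to 0.550 in control cells with vehicle. These ranges overlapped. Stat3 and Stat5a overlap by 72 bases on opposite strands, and Stat6 and Nab2 by 40 bases, so their reads there could be told apart only if the counting used strand. Stat4 is overlapped on its own strand by the transcript Gm28177 and shared 23.0% of its 37-base runs with other genes, so its few counts are uncertain.

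Genes that feed or restrain STATs, and their targets, were grouped in lists whose counts stand beside those of all genes tested, of which 36.6% rose and 35.7% fell with IFNb in Adar-null cells, and 26.5% rose and 26.5% fell in control cells. Nothing particular to a list is read from its counts. Apart from the kinases, the partners, Osmr and Vegfa, genes named in a list were picked for the largest called responses in Adar-null cells. That choice favours a difference from control cells, and members that moved mainly in control cells can be left out. The interaction passed for 59.3% of all genes tested. Il6, Lif, Il6ra, Il12rb1, Socs1, Usp18, Cebpd, Id1 and 9 of the 14 ISGF3 targets reached the count filter only with the IFNb libraries, as did 4.01% of all genes tested. Their direction is thus partly set by the filter, as is their part in the counts and medians of their lists. Of 23 ligands of STAT-coupled receptors, 3 had enough counts, and 2 of these, Il6 and Lif of the IL-6 family that acts through STAT3, had them only with IFNb, so the list is given no count or median. Il6 had 81 counts over the 3 Adar-null libraries with IFNb and 0 in the other 3 groups, which, taken at a floor of 3 counts over a group, put it at least 27.6-fold above Adar-null cells with vehicle and at least 28.2-fold above control cells with IFNb. Lif had 97 counts in Adar-null cells with IFNb, against 0 with vehicle, a difference of at least 33.1-fold, and it had 19 counts in control cells with IFNb, against 4 with vehicle (log2 fold change 2.02 ± 0.86, adjusted p = 0.014).

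Of 7 tested receptor chains coupled to STAT3, 1 rose and 3 fell with IFNb in Adar-null cells (median log2 fold change 0.09), and 3 rose and 1 fell in control cells (median 0.17). Il6st, the shared gp130 chain, averaged 123 ± 3.64 CPM with IFNb and 102 ± 4.16 CPM with vehicle in Adar-null cells (0.28 ± 0.06, adjusted p = 3.96e-06), and 80.2 ± 6.01 CPM in control cells with IFNb and 98.9 ± 2.76 CPM with vehicle (-0.30 ± 0.06, adjusted p = 6.45e-06). Its interaction of 0.58 ± 0.08 passed (adjusted p = 5.04e-10). Lifr, the LIF receptor chain, fell in Adar-null cells (-1.28 ± 0.18, adjusted p = 7.05e-11), as did Il10rb, a chain of the IL-10 receptor (-1.07 ± 0.08, adjusted p = 6.35e-24), and Cntfr, the CNTF receptor (-0.97 ± 0.09, adjusted p = 3.91e-19). In control cells these 3 had -0.11 ± 0.15, 0.38 ± 0.07 and 0.17 ± 0.07. The interaction passed for each, at -1.17, -1.45 and -1.14, as it did for 59.3% of all genes tested. As these chains were picked for their responses in Adar-null cells, that is not read as a result. Osmr, a tested chain of this list that the choice leaves out, moved mainly in control cells. There it averaged 32.4 CPM with IFNb and 16.3 CPM with vehicle. In Adar-null cells Osmr averaged 21.1 CPM with IFNb and 19.6 CPM with vehicle.

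Of 6 tested chains coupled to STAT4, STAT5 or STAT6, 3 rose and 1 fell in Adar-null cells (median 0.48), and 3 rose in control cells (median 0.13). Il12rb1 of the IL-12 receptor rose in both (2.66 ± 0.78 in Adar-null cells and 3.56 ± 0.75 in control cells), where each vehicle group had 5 counts in all. Crlf2 of the TSLP receptor (1.80 ± 0.32) and Csf2ra of the GM-CSF receptor (0.80 ± 0.21) rose in Adar-null cells, and Il12rb2 fell (-1.30 ± 0.37). Of the 4 interferon receptor chains, Ifnar1, a chain of the type I receptor, fell in Adar-null cells (-0.52 ± 0.06, adjusted p = 1.1e-12) and had -0.07 ± 0.06 in control cells, with an interaction of -0.45 ± 0.09 (adjusted p = 2.4e-06). Ifngr2 of the type II receptor rose in both, by 0.24 ± 0.08 in Adar-null cells and 0.22 ± 0.08 in control cells.

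The JAK kinases, which phosphorylate STATs, had log2 fold changes with IFNb between -0.45 and 0.62. Of the 4, 1 rose in Adar-null cells (median 0.15), and 2 rose and 1 fell in control cells (median 0.15). The shares over all genes tested were 36.6% higher in Adar-null cells, and 26.5% higher and 26.5% lower in control cells. Jak1 rose by 0.17 ± 0.05 in Adar-null cells and 0.16 ± 0.05 in control cells. Jak2 had -0.12 ± 0.08 in Adar-null cells, which did not pass, and fell in control cells (-0.45 ± 0.08, adjusted p = 3.31e-07). Jak3, at 2.34 to 5.24 CPM on average, had 0.53 ± 0.31 in Adar-null cells, which did not pass, and 0.62 ± 0.26 in control cells (adjusted p = 0.0376). Tyk2 had 0.13 ± 0.08 in Adar-null cells and 0.14 ± 0.08 in control cells, neither of which passed.

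Of 6 partners and coactivators, 6 rose with IFNb in Adar-null cells (median 0.54), and 3 rose and 2 fell in control cells (median 0.09). Among all genes tested, 36.6% rose in Adar-null cells, and 26.5% rose and 26.5% fell in control cells. Irf9, the DNA-binding partner of STAT2 in ISGF3, averaged 143 ± 1.73 CPM with IFNb and 3.43 ± 0.59 CPM with vehicle in Adar-null cells (5.38 ± 0.18), and 101 ± 3.95 CPM in control cells with IFNb and 2.84 ± 0.57 CPM with vehicle (5.15 ± 0.21). Its interaction was 0.23 ± 0.28 (adjusted p = 0.499). Nmi, a STAT-interacting protein that interferon induces, rose by 3.11 ± 0.16 in Adar-null cells and 2.82 ± 0.17 in control cells. The acetyltransferases Crebbp and Ep300 and the coactivator Ncoa1, which STATs recruit, had 0.51 ± 0.05, 0.54 ± 0.05 and 0.35 ± 0.06 in Adar-null cells and -0.16 ± 0.06, -0.05 ± 0.05 and -0.27 ± 0.06 in control cells. Kpna1, an importin that carries STATs into the nucleus, rose by 0.54 ± 0.06 in Adar-null cells and 0.22 ± 0.06 in control cells. The interaction passed for these 4, as it did for 59.3% of all genes tested.

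**Figure D4:**
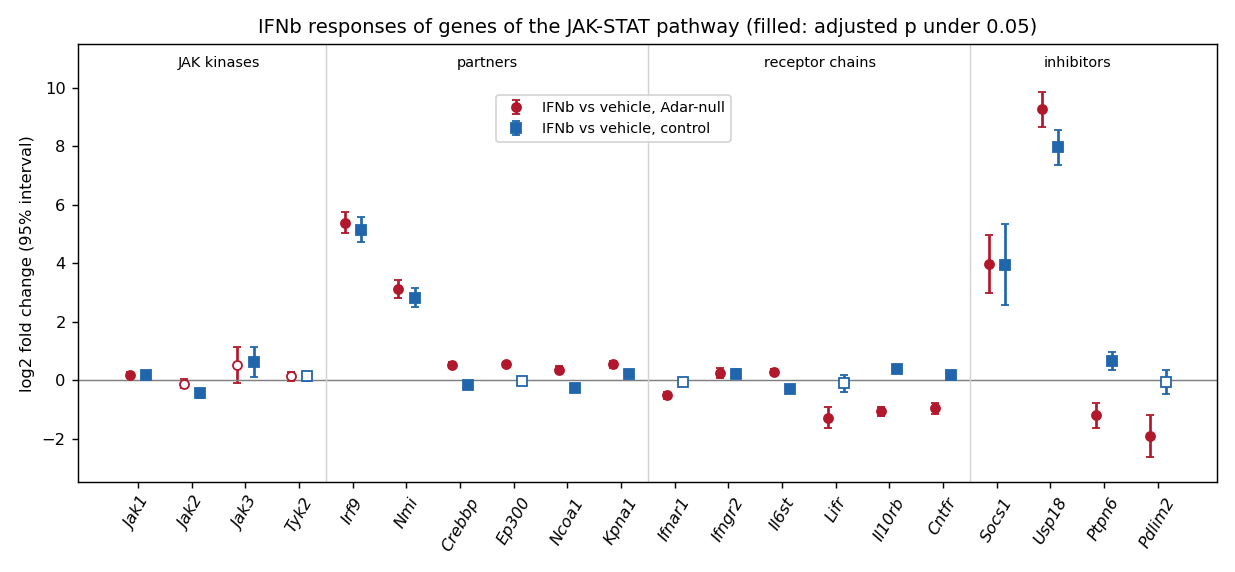
Log2 fold change with IFNb (y axis, 95% intervals) of 20 genes of the pathway (x axis) in Adar-null cells (red circles) and control cells (blue squares); filled symbols passed an adjusted p of 0.05. Irf9, Nmi, Socs1 and Usp18 stand high in both genotypes, and Crebbp, Ncoa1, Il6st, Il10rb, Cntfr and Ptpn6 have filled symbols on opposite sides of 0.

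Of 19 inhibitors, 7 rose and 5 fell in Adar-null cells (median 0.17), and 5 rose and 3 fell in control cells (median -0.05). Of all genes tested, 36.6% rose and 35.7% fell in Adar-null cells, and 26.5% rose and 26.5% fell in control cells. Usp18, which binds the type I receptor and blocks its signal, averaged 798 ± 39.1 CPM with IFNb and 1.23 ± 0.64 CPM with vehicle in Adar-null cells (9.26 ± 0.29), and 337 ± 4.10 CPM in control cells with IFNb and 1.33 ± 0.64 CPM with vehicle (7.97 ± 0.30). Its interaction was 1.29 ± 0.42 (adjusted p = 0.00541). Socs1, which inhibits JAK kinases, rose by 3.98 ± 0.50 in Adar-null cells and 3.95 ± 0.70 in control cells. The phosphatase Ptpn6 (SHP-1) fell in Adar-null cells (-1.21 ± 0.21) and rose in control cells (0.65 ± 0.15), and Pdlim2, which promotes STAT degradation, fell in Adar-null cells (-1.91 ± 0.36) and had -0.06 ± 0.21 in control cells. The interaction passed for both, at -1.87 (adjusted p = 1.64e-10) and -1.86 (adjusted p = 1.87e-05), as it did for 59.3% of all genes tested. Both were picked for their responses in Adar-null cells, so that is not read as a result.

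Known targets of the factors were listed for each, and some genes stand in more than 1 list. All 14 ISGF3 targets were tested, 9 of them only through their IFNb counts, so their number higher with IFNb is not read as a result. Under IFNb 11 were higher and 3 lower in Adar-null than in control cells (median 0.66), beside 36.4% higher and 36.2% lower of all genes tested. The interaction passed for 6 of 14, all higher, with a median over the 14 of 1.13, beside 0.01 over all genes tested. Of all genes tested 59.3% passed, 28.6% higher and 30.7% lower. The 9 targets tested only through their IFNb counts had few or no vehicle counts, so their interactions were imprecise. The share that passed is therefore not read as a result. Ifit3 averaged 1599 ± 52.3 CPM with IFNb and 0.67 ± 0.48 CPM with vehicle in Adar-null cells, against 709.5 ± 28 CPM in control cells with IFNb and 1.05 ± 0.37 CPM with vehicle. Ifit1 and Xaf1 rose by 10.55 ± 0.33 and 9.35 ± 0.72 in Adar-null cells and by 9.12 ± 0.31 and 8.88 ± 0.72 in control cells. Oas2 was at least 1980-fold higher with IFNb in Adar-null cells, whose vehicle libraries were at 0 counts. Unlike Stat2, Oas2 was lower in Adar-null than in control cells under IFNb (-0.26 ± 0.06, adjusted p = 0.000132).

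Of 12 tested STAT3 targets, 3 rose and 8 fell with IFNb in Adar-null cells (median -0.55), and 4 rose and 4 fell in control cells (median 0.01). Among all genes tested, 72.3% were called in Adar-null cells, 36.6% higher and 35.7% lower. In control cells 53% were called, 26.5% higher and 26.5% lower. Birc5, which encodes survivin and is also a mitotic gene, had -4.03 ± 0.16 in Adar-null cells and -0.33 ± 0.07 in control cells (interaction -3.70, adjusted p = 4.78e-47). Junb, an AP-1 subunit, rose by 2.91 ± 0.10 in Adar-null cells and 1.33 ± 0.12 in control cells. Cebpd, a transcription factor of the acute phase, rose in Adar-null cells (1.65 ± 0.45) and Pim1, a survival kinase, fell in both (-1.45 ± 0.23 in Adar-null cells and -0.68 ± 0.19 in control cells). Vegfa, which the choice by Adar-null response leaves out, moved more in control cells. There it averaged 63.8 CPM with IFNb and 164 CPM with vehicle. In Adar-null cells Vegfa averaged 116 CPM with IFNb and 140 CPM with vehicle.

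Of 7 tested STAT5 targets, 3 rose and 2 fell in Adar-null cells (median 0.60), and 2 rose and 2 fell in control cells (median 0.03). Bcl6, a repressor, averaged 32.0 ± 3.12 CPM with IFNb and 11.9 ± 0.55 CPM with vehicle in Adar-null cells (1.43 ± 0.13), and 5.68 ± 0.56 CPM in control cells with IFNb and 11.6 ± 0.21 CPM with vehicle (-1.03 ± 0.18). Ccnd1, which encodes cyclin D1, averaged 42.8 ± 4.11 CPM with IFNb and 91.4 ± 5.02 CPM with vehicle in Adar-null cells (-1.10 ± 0.07), and 338 ± 7.15 CPM in control cells with IFNb and 99.1 ± 3.15 CPM with vehicle (1.77 ± 0.05). These 2 genes moved in opposite directions in the 2 genotypes, with interactions of 2.46 (adjusted p = 1e-19) and -2.87 (adjusted p = 6.49e-61). Id1, an inhibitor of helix-loop-helix factors, rose in Adar-null cells (2.70 ± 0.31) and had 0.09 ± 0.44 in control cells. Id1 reached the count filter only with the IFNb libraries, which partly sets its direction and its part in the list's count and median. Of 11 STAT6 targets, many of them macrophage genes, Socs1 alone was tested, and of 7 STAT4 targets 3 were tested, of which Il12rb2 fell in Adar-null cells.

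The genes whose pattern over the 12 libraries was most like that of a member were found by the root mean square difference of centred log2 CPM. For Stat2 they were 2010002M12Rik at 0.18, Samd9l at 0.21 and Tnfsf10 at 0.24, where the median over 11556 other tested genes was 2.52. A prior count of 2 was added before the log was taken. Under vehicle, Tnfsf10 had 0 counts in both genotypes, and 2010002M12Rik had 1 in Adar-null cells and 0 in control cells. The vehicle values of these genes, and so part of their likeness to Stat2, are set by the prior count. Samd9l, an antiviral gene, averaged 1109 ± 23.6 CPM in Adar-null cells with IFNb, 31.7 ± 1.79 CPM in Adar-null cells with vehicle, 464 ± 13.6 CPM in control cells with IFNb and 28.4 ± 2.54 CPM in control cells with vehicle. For Stat3 they were Eif1a at 0.08, Asxl2 at 0.08 and Gm1821 at 0.09 (median 0.54). Eif1a, a translation initiation factor, had log2 fold changes with IFNb of 1.06 ± 0.06 in Adar-null cells and 0.57 ± 0.06 in control cells, against 1.11 and 0.65 for Stat3.

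For Stat6 the nearest were Spata6, Mrpl15 and Kpna1, each at 0.06 (median 0.37). For Stat5a they were Slc45a4 at 0.08, Urod at 0.09 and Idh3g at 0.09 (median 0.35), and for Stat5b Cct2 at 0.07 and Cdc42 at 0.08 (median 0.35). The third for Stat5b is listed under a symbol that reads as a date and is not named. Urod, an enzyme of haem synthesis, had -0.39 ± 0.12 in Adar-null cells and 0.04 ± 0.11 in control cells, and Cct2, a chaperonin subunit, had -0.29 ± 0.04 in Adar-null cells and -0.13 ± 0.04 in control cells. Each of these genes was picked for its likeness among all genes, so their values describe the pattern and were not tested against it.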

How the data were processed

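Total RNA of 12 B16 libraries was depleted of ribosomal RNA and sequenced, per the labels' protocols. The submitters' processing notes name the build mm10 and the tools HTSeq 0.6.1p1, Bowtie2 2.2.4, Trimmomatic 0.33, bcl2fastq 2.19.1 and DESeq2; their order, the strand setting and the annotation were not given in the sources used here. Values deposited by the authors were unnormalised whole-number counts by gene symbol; 0 columns belonged to no sample and 0 rows named no gene.

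From these counts, edgeR 4.0.16 (R 4.3.3) filtered genes by group (filterByExpr), scaled libraries by TMM and tested 5 comparisons by quasi-likelihood in 1 fit of all 12 libraries, with Benjamini-Hochberg adjustment over 11561 genes and a threshold of 0.05. Values after ± are standard errors of log2 fold changes and SD of CPM. The common biological coefficient of variation was 0.0397. Same-numbered replicates did not deviate together (correlations -0.10 to 0.06 over 18 pairs), so no block was used. Counting intervals and floors (3 counts over a group) cover counting error only. Intervals of log2 fold changes are instead built from their standard errors in the quasi-likelihood fit. The 20 alternatives are other scalings, DESeq2 1.42.0, no filter, Rn45s (21.1% to 28.5% of counts) left out, a replicate block, only the groups compared, and each library left out; exon length was added after seeing the data. The script was tested on simulated counts.

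The members, the pathway lists and the rules for named genes were chosen with earlier results of these data known. Osmr and Vegfa were named outside these rules, as list members that moved more in control cells. Named were all members, all tested kinases and partners, the 4 tested genes per other list with the largest called response in Adar-null cells, the 3 nearest neighbours on each side and the 3 most alike genes per member; some of these genes are not reported here.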

Additional observations from a re-analysis of the deposited data

Results flagged for a closer look

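For 3 STAT genes the response to IFNb differed between Adar-null and control cells by the interaction test of edgeR with Benjamini-Hochberg adjustment. The interaction, Adar-null response minus control response on the log2 scale, was 1.01 for Stat2 (responses of 5.44 in Adar-null cells and 4.44 in control cells). It was 0.45 for Stat3 (1.11 in Adar-null cells and 0.65 in control cells). It was 0.19 for Stat6 (0.51 in Adar-null cells and 0.32 in control cells), with an adjusted p of 0.0435 that did not hold under most alternatives. Of all genes tested, 59.3% passed the same test.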

How the results depend on the processing

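All Stat2 and Stat3 calls in the IFNb comparisons and the interaction, and the Stat6 responses, kept their direction and passed under every alternative run, 20 per comparison and 19 for the interaction, and no called value changed sign. The number of genes called between genotypes under vehicle, 753, was 324 with DESeq2 and ranged from 308 to 801 when 1 library was left out (393 without Adar-null vehicle replicate 1, 463 without its replicate 2 and 308 without control vehicle replicate 2). The number of STAT members called there was 0 to 1 when 1 library was left out. The Stat6 interaction of 0.19 did not pass with library totals alone (0.18, adjusted p = 0.0671), DESeq2 (0.20, adjusted p = 0.094), no filter (0.19, adjusted p = 0.0649), Rn45s left out (0.19, adjusted p = 0.0513) and in 10 of the 12 fits without 1 library (range of the 12, 0.16 to 0.24). The cause was not tested. The replicate block changed no number of STAT members called. These numbered 0 and 4 between genotypes under vehicle and under IFNb, 5 and 3 for the IFNb response of Adar-null and control cells and 3 for the interaction. With the block, 711 genes were called between genotypes under vehicle, against 753 without it. The depth leaves Stat4 at single counts, and the 3 libraries of a group may be technical repeats of 1 subcloned population.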

Other observations

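Genes next to the STAT genes on the chromosome had responses that differed from theirs in several cases. Ghdc, next to Stat5b on the side away from Stat5a, averaged 22.1 ± 2.13 CPM with IFNb and 7.27 ± 1.15 CPM with vehicle in Adar-null cells (log2 fold change 1.58 ± 0.16, adjusted p = 3.43e-18), where Stat5b fell. In control cells it averaged 10.6 ± 0.60 CPM with IFNb and 8.63 ± 1.11 CPM with vehicle (0.30 ± 0.17, adjusted p = 0.128). Ptrf, on the far side of Stat3, had -0.26 ± 0.10 in Adar-null cells and -0.37 ± 0.09 in control cells, where Stat3 rose. Timeless, a replication fork protein 17556 bases below Stat2, fell in Adar-null cells with IFNb (-2.85 ± 0.13, adjusted p = 7.51e-47) and in control cells (-0.38 ± 0.08, adjusted p = 3.38e-05). Apof, whose RefSeq span overlaps the start of Stat2 by 753 bases, had 3 counts in Adar-null cells with IFNb and 0 with vehicle, and 3 counts in control cells with IFNb and 0 with vehicle. Nab2, which overlaps the end of Stat6 on the other strand, had 0.56 ± 0.16 in Adar-null cells (adjusted p = 0.00072) and 0.06 ± 0.17 in control cells.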
